A study of Bombyx mori with 4 samples.

Results

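Early transcript differences were measured in prothoracic glands of the silkworm Bombyx mori after 1 h with prothoracicotropic hormone (PTTH), against glands kept for 1 h without it. The comparison uses 2 of the 4 libraries of the study. It covers 8547 of the 14622 loci in the deposited table, chosen because their FPKM, a level counted in fragments per kilobase of transcript and set against the depth of the library, averaged at least 1 over the 4 libraries. The PTTH 1 h glands were held for 1 h in Grace's Insect Medium, a culture medium for insect tissue, with 10 nM recombinant PTTH, and the control 1 h glands for as long in the same medium without it. The PTTH 3 h and control 3 h libraries, from glands held for 3 h with and without 10 nM PTTH, serve here only to show where a locus stood later. All glands came from racial hybrid larvae of Mulberry Farms on day 4 of the fifth instar, reared at 25 °C on artificial diet, and all were kept for 30 min in medium beforehand. Each larva gave 1 gland of its pair to the hormone and 1 to the control, so PTTH 1 h and control 1 h are pools of paired glands, while the 3 h libraries came from other larvae. Glands of 12 to 18 larvae made an RNA preparation and 2 preparations were pooled, which leaves 1 library a group, no replicates and no test.

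The prothoracic gland is the steroid-producing gland of insect larvae. It turns dietary sterols into ecdysteroids through a chain of enzymes, several of them cytochrome P450s, and the ecdysteroids set off moulting and metamorphosis. PTTH is a brain peptide that binds the receptor tyrosine kinase Torso on gland cells, and the Ras and ERK kinases carry the signal onward, as is known from flies and moths. No gene names stand beside the loci, and 0 of the table's identifiers matched a list of 18210 silkworm genes. So the members of this pathway could not be picked out, the labelled tissue could not be checked against its markers, and loci are given by their place on a scaffold. The sources used here state neither the genome build nor whether starts are counted from 0 or 1.

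Fragment numbers were read from the authors' confidence limits, as the number whose counting error would give the stated upper limit. By that reading the whole table holds 8359000 fragments in PTTH 1 h and 8135000 in control 1 h. A tested locus rests on a median of 255 implied fragments in PTTH 1 h and 248 in control 1 h. Tested loci with fewer than 20 numbered 917 in PTTH 1 h and 901 in control 1 h. The limits and the standard errors below cover counting error only, and variation between animals or preparations is not in them.

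Most of the gland's transcripts stood at nearly the same level with and without the hormone at 1 h. The log2 ratio of (FPKM + 1), PTTH over control, had a median of -0.07, and its quartiles were -0.19 and 0.04. Within 1.5-fold lay 8143 of the 8547 loci, which is 95.3%. The spread was narrower than at 3 h, where the quartiles of the ratio lay 0.57 apart on the log2 scale, against 0.23 at 1 h. A slight lean to lower values with PTTH ran through the table, since 67.3% of loci had a ratio below 0. Scaling the libraries to the same upper quartile shifted log2 ratios by 0.08, which is as large as this lean. How the deposited values were scaled is not given, so a lean of the transcripts and a difference in scaling cannot be told apart.

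At least 2-fold higher were 84 loci, or 0.983% of those tested, and 82 loci, or 0.959%, were at least 2-fold lower. Many of these rest on few fragments. With the further demand that the authors' confidence intervals lie apart, 40 loci (0.468%) were higher and 20 (0.234%) lower, and these are the loci meant by higher and lower from here on.

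**Figure D1:**
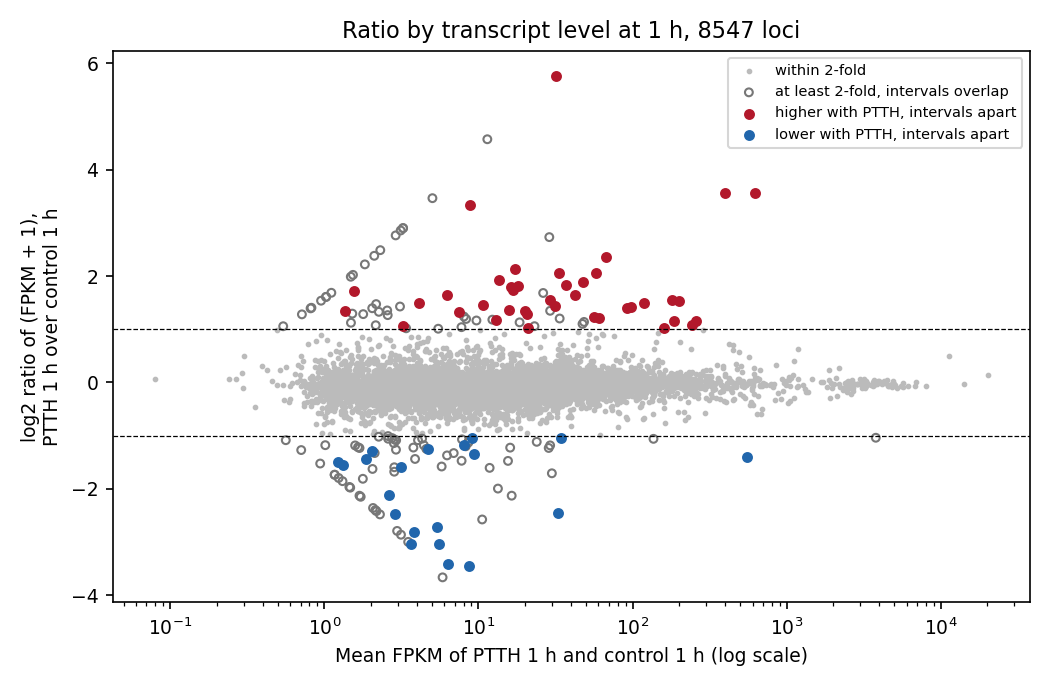
Each point is 1 of the 8547 loci, placed by its mean FPKM over PTTH 1 h and control 1 h (log axis) and by its log2 ratio of (FPKM + 1), PTTH over control, with dashed lines at 2-fold. The 40 filled red points above 1 spread over all levels, while most of the 20 filled blue points below -1 lie at low FPKM; open circles are loci past 2-fold whose intervals overlap.

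The higher and the lower loci differed in level, far more in PTTH 1 h than in control 1 h. Their choice by the 1 h ratio itself sets them apart in PTTH 1 h, so the medians are a description only. Higher loci had a median of 50.1 FPKM in PTTH 1 h and 13.9 FPKM in control 1 h. Lower loci had a median of 0.648 FPKM in PTTH 1 h and 8.71 FPKM in control 1 h. Among the 744 tested loci with a mean of 100 FPKM or more, 12 (1.61%) were higher and 1 (0.134%) lower. Among the 1994 loci with a mean of 1 to 5 FPKM, 2 (0.1%) were higher and 12 (0.602%) lower. Precision differs along this range, with a median counting SE of 0.04 on the log2 scale at 100 FPKM or more and of 0.21 at 1 to 5 FPKM. These means include the PTTH libraries, so the choice itself moves higher loci up the range and lower loci down. By control 1 h level alone, 5 (0.693%) of the 721 tested loci at 100 FPKM or more were higher, and 1 lower locus stood there. At 10 to 100 FPKM in control 1 h, 19 (0.425%) of 4475 tested loci were higher, and 9 lower loci stood there. At 1 to 10 FPKM, 12 (0.375%) of 3202 were higher, and there were 10 lower loci. Under 1 FPKM, 4 (2.68%) of 149 were higher, and with the added 1 FPKM no locus there could be called lower. Control 1 h is part of the ratio too, so these shares are also tied to the choice. The 40 higher loci together held 0.752% of all FPKM in PTTH 1 h and 0.195% in control 1 h.

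Among the higher loci with 10 FPKM or more in control 1 h, the largest ratios were those of a pair. The first, XLOC_009248 at nscaf2943 3603651 to 3608517, reached 1141 FPKM (authors' limits 1124 to 1158) in PTTH 1 h, against 95.2 FPKM (90.6 to 99.7) in control 1 h. At 3 h it had 1382 FPKM in PTTH 3 h and 81.8 FPKM in control 3 h. Both hormone libraries were far above both controls, and the 1 h log2 ratio was 3.57 ± 0.04 (counting SE). The tested loci on either side of it, 3342288 to 3388437 and 3632048 to 3639774, had log2 ratios of -0.02 and -0.20. The difference was thus not shared by the neighbours on the scaffold.

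The second, a short locus of 0.376 kb at nscaf2855 6954250 to 6954626, had a 1 h ratio within counting error of the first. Its values were 729.9 FPKM in PTTH 1 h, 61.2 FPKM in control 1 h, 816 FPKM in PTTH 3 h and 53.4 FPKM in control 3 h. At 1 h this is a log2 ratio of 3.55 ± 0.14, and the neighbours had ratios of -0.17 and -0.38. Another locus with this pattern but at a low level lies at nscaf2930 1477270 to 1477996, with 16.8 FPKM in PTTH 1 h, 0.760 FPKM in control 1 h, 32.6 FPKM in PTTH 3 h and 1.00 FPKM in control 3 h. In the controls it was close to the floor of measurement, with 9.02 implied fragments at 1 h.

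XLOC_009641, at nscaf2964 454368 to 456443, had the largest log2 ratio of all, 5.77, and behaved differently. In PTTH 1 h there were 64.0 FPKM (54.4 to 73.6) and in control 1 h 0.193 FPKM, while both 3 h libraries list it at 0. It was therefore seen at more than a trace in PTTH 1 h only, from 177 implied fragments, and with under 1 implied fragment in control 1 h no fold is given. Another higher locus, at nscaf2948 2544306 to 2546857, is listed with the very same 0.193 FPKM and the same limits in control 1 h. Its 2.93 FPKM in PTTH 1 h rest on 8.01 implied fragments. With under 1 implied fragment in control 1 h at each locus, both ratios are uncertain. Whether fragments were shared between near-identical copies was not tested.

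A group of short loci of well under 1 kb followed at about 4-fold to 5-fold. At nscaf2902 9324199 to 9324679 there were 113 FPKM (105 to 121) in PTTH 1 h and 21.2 FPKM (17.6 to 24.8) in control 1 h, which is 5.33-fold higher. At nscaf2937 997249 to 997759 there were 28.8 FPKM (24.7 to 32.9) in PTTH 1 h and 5.76 FPKM (3.85 to 7.66) in control 1 h, 5.01-fold higher. Both were nearly flat between the controls and had 119 and 52.0 FPKM in PTTH 3 h, against 20.04 and 6.52 FPKM in control 3 h. The locus at nscaf1898 12412363 to 12413005 had 28.5 FPKM in PTTH 1 h, 7.35 FPKM in control 1 h, 54.6 FPKM in PTTH 3 h and 7.24 FPKM in control 3 h. That at nscaf2930 1680772 to 1681378 had 26.3 FPKM in PTTH 1 h, 7.18 FPKM in control 1 h, 65.1 FPKM in PTTH 3 h and 13.2 FPKM in control 3 h. A lower one at nscaf2853 4957184 to 4957876 had 10.0 FPKM (6.38 to 13.6) in PTTH 1 h and 2.51 FPKM (0.611 to 4.41) in control 1 h, from 6.99 implied fragments in the control. In each of these 5 loci both hormone libraries lay above both controls. The shortest of the leading loci, nscaf2943 1908275 to 1908569, had 58.0 FPKM in PTTH 1 h and 15.7 FPKM in control 1 h, with 83.1 FPKM in PTTH 3 h and 31.8 FPKM in control 3 h.

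Longer loci were among the higher ones too. The locus at nscaf1898 7047601 to 7056781, spanning 9.18 kb, had 94.3 FPKM (91.0 to 97.6) in PTTH 1 h, 21.9 FPKM (20.2 to 23.6) in control 1 h, 218 FPKM in PTTH 3 h and 20.2 FPKM in control 3 h. The log2 ratio, 2.06 ± 0.06 at 1 h, was 3.37 ± 0.06 at 3 h, with the controls level between the times. The locus at nscaf3034 3703268 to 3713437, spanning 10.2 kb, had 22.1 FPKM in PTTH 1 h, 5.11 FPKM in control 1 h, 63.4 FPKM in PTTH 3 h and 7.79 FPKM in control 3 h. At nscaf2943 905053 to 908347 the values were 75.9 FPKM in PTTH 1 h, 19.7 FPKM in control 1 h, 200.1 FPKM in PTTH 3 h and 35.2 FPKM in control 3 h. Both were well apart from the control at each time, with log2 ratios at 1 h of 1.92 ± 0.13 and 1.89 ± 0.04.

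At a further pair of loci the control was itself higher in the 3 h library, which came from other larvae. The locus at nscaf2828 2547878 to 2549076 had 54.0 FPKM in PTTH 1 h, 12.2 FPKM in control 1 h, 74.6 FPKM in PTTH 3 h and 27.6 FPKM in control 3 h. That at nscaf1690 3189321 to 3196609 had 25.8 FPKM in PTTH 1 h, 6.74 FPKM in control 1 h, 98.1 FPKM in PTTH 3 h and 47.3 FPKM in control 3 h. Their log2 ratios were 2.06 ± 0.11 and 1.79 ± 0.10 at 1 h, and 1.40 ± 0.07 and 1.04 ± 0.04 at 3 h.

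**Figure D2:**
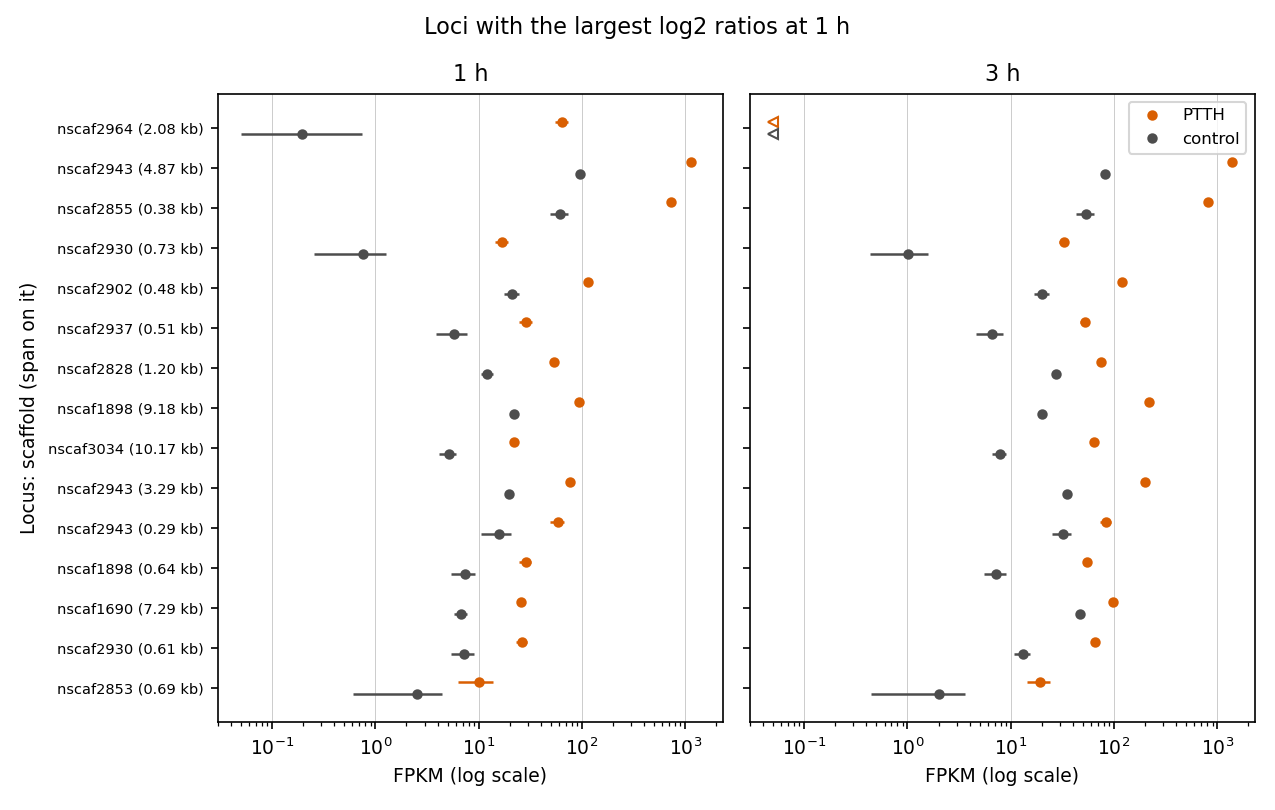
FPKM (log axis) with the authors' confidence limits for the 15 higher loci with the largest log2 ratios at 1 h among those with at least 20 implied fragments, ordered from the top by that ratio, at 1 h on the left and 3 h on the right. PTTH lies to the right of control at every locus at 1 h; open triangles mark the locus listed at 0 in both 3 h libraries, and lower limits under 0.05 FPKM are drawn at 0.05.

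Folds of FPKM are set out here by the level in the control. In the 5 higher loci that had 100 FPKM or more in control 1 h, the fold of FPKM ran from 2.04 to 2.91. In the 19 with 10 to 100 FPKM it ran from 2.11 to 12.0 with a median of 2.94, and in the 12 with 1 to 10 FPKM from 2.44 to 5.01 with a median of 3.75. The 2 loci under 1 FPKM that had more than 3 implied fragments were 7.04-fold and 22.0-fold higher. The added 1 FPKM demands a larger fold of low loci, so these ranges are a description of the loci chosen. The most abundant of the 5 in control glands was nscaf2964 1244438 to 1245551, at 359 FPKM (350.0 to 367) in PTTH 1 h and 160.1 FPKM (154 to 166) in control 1 h. At nscaf2823 4145216 to 4145582 there were 330.4 FPKM in PTTH 1 h and 156 FPKM in control 1 h. At nscaf2529 803326 to 808262 there were 298 FPKM in PTTH 1 h and 102 FPKM in control 1 h. The other two, at nscaf1681 2093311 to 2096370 and nscaf2210 1895881 to 1902432, had 258 and 214 FPKM in PTTH 1 h, against 116 and 105 FPKM in control 1 h.

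Higher loci lay on 31 scaffolds of the 354 with tested loci, and few were next to each other. The exception was nscaf2838, where 3 consecutive tested loci were higher. The first, 156546 to 156780, had 134 FPKM (113 to 155) in PTTH 1 h and 49.8 FPKM (36.4 to 63.2) in control 1 h. The second, 178873 to 179320, had 28.6 FPKM (22.7 to 34.4) in PTTH 1 h and 13.5 FPKM (9.34 to 17.8) in control 1 h, and the third, 182881 to 185118, had 64.6 FPKM (55.2 to 74.1) in PTTH 1 h and 20.1 FPKM (14.6 to 25.5) in control 1 h. All 3 stood further apart at 3 h, with 337, 63.9 and 134.9 FPKM in PTTH 3 h against 35.3, 10.4 and 20.6 FPKM in control 3 h. The gap between the last pair was 3.56 kb, and whether they are parts of a single transcript cannot be read from the table. Leaving out the higher loci themselves, 72 tested loci were next to a higher one. They had a median log2 ratio of -0.01, and 4 of them (5.56%) were at least 2-fold higher, against 0.983% of all tested loci. These shares are unlike, because the 0.983% includes the 40 higher loci themselves. All 4 have overlapping intervals, and those at nscaf1898 6876765 and nscaf2980 379730 are listed at 0 in control 1 h.

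The lower loci had a different make-up. In 9 of the 20, PTTH 1 h was at least 10-fold below control 1 h with FPKM above 0 in both, and in those 9 the transcript was scarce in PTTH 1 h, at 0.162 to 0.668 FPKM, against 2.27 to 16.7 FPKM in control 1 h. XLOC_002860, at nscaf2575 4345299 to 4350998, had the smallest log2 ratio of (FPKM + 1) among the lower loci, with 0.628 FPKM (0.197 to 1.06) in PTTH 1 h, 16.7 FPKM (14.4 to 19.1) in control 1 h, 3.30 FPKM (2.34 to 4.26) in PTTH 3 h and 5.01 FPKM (3.78 to 6.24) in control 3 h. The next tested locus on the scaffold, 4370066 to 4374241, was beside it in value as in place, with 0.260 FPKM (0 to 0.539) in PTTH 1 h, 12.4 FPKM (10.4 to 14.4) in control 1 h, 2.24 FPKM in PTTH 3 h and 4.41 FPKM in control 3 h. Their log2 ratios at 1 h were -3.45 ± 0.21 and -3.41 ± 0.19, from 8.49 and 3.50 implied fragments in PTTH 1 h, and these ratios differ by less than their counting error. Without the added 1 FPKM the second was further below its control, at 47.7-fold against 26.7-fold for the first.

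Loci on other scaffolds had much the same profile over the 4 libraries. At nscaf2983 1738719 to 1742401 there were 0.412 FPKM in PTTH 1 h, 10.6 FPKM in control 1 h, 2.26 FPKM in PTTH 3 h and 5.14 FPKM in control 3 h. At nscaf2888 1649405 to 1655107 there were 0.668 FPKM in PTTH 1 h, 10.0 FPKM in control 1 h, 2.14 FPKM in PTTH 3 h and 4.72 FPKM in control 3 h. At nscaf3055 1531730 to 1533014 there were 0.202 FPKM in PTTH 1 h, 7.40 FPKM in control 1 h, 1.16 FPKM in PTTH 3 h and 2.91 FPKM in control 3 h. In these 3 loci control 1 h was the highest library and PTTH 1 h the lowest, with both 3 h libraries between. The long locus at scaffold792 9331 to 20994 also has this profile, from 33.5 implied fragments in PTTH 1 h and 909 in control 1 h. It had 0.183 FPKM (0.120 to 0.246) in PTTH 1 h, 5.57 FPKM (5.201 to 5.939) in control 1 h, 1.27 FPKM (1.10 to 1.43) in PTTH 3 h and 2.22 FPKM (1.997 to 2.45) in control 3 h. The intervals of the 4 libraries do not touch there.

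The remaining loci of the 9 had under 5 FPKM in control 1 h. At nscaf2830 395556 to 397023 there were 0.359 FPKM in PTTH 1 h, 4.88 FPKM in control 1 h, 2.71 FPKM in PTTH 3 h and 2.96 FPKM in control 3 h. At nscaf2868 594724 to 602231 there were 0.162 FPKM in PTTH 1 h, 2.27 FPKM in control 1 h, 0.781 FPKM in PTTH 3 h and 1.16 FPKM in control 3 h. The 3 h intervals of both overlap. The locus at nscaf3058 4351841 to 4356140 was scarce in both hormone libraries, with 0.179 FPKM in PTTH 1 h, 2.45 FPKM in control 1 h, 0.150 FPKM in PTTH 3 h and 1.63 FPKM in control 3 h. Its 3 h intervals lie apart, and of the 9 it alone was past 2-fold at 3 h on the log2 scale of (FPKM + 1). The 9 were picked by their 1 h values, so that most of their 3 h values lie between these is not independent of the choice. Fewer cells of a kind in a pool and less RNA per cell cannot be told apart in such libraries, and the part of either in these differences was not tested.

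More abundant transcripts were few among the lower loci. XLOC_006977, at nscaf2865 826992 to 828006, stood at 9.47 FPKM (8.05 to 10.9) in PTTH 1 h, 56.5 FPKM (52.9 to 60.2) in control 1 h, 17.1 FPKM (15.3 to 19.0) in PTTH 3 h and 30.8 FPKM (28.2 to 33.4) in control 3 h. Its 4 intervals are also all separate, with log2 ratios of -2.46 ± 0.11 at 1 h and -0.81 ± 0.09 at 3 h. Only 1 lower locus was above 100 FPKM in control 1 h, nscaf2886 229940 to 233028. It had 303 FPKM (285 to 321) in PTTH 1 h, 803 FPKM (772 to 835) in control 1 h, 302 FPKM (285 to 320) in PTTH 3 h and 2524 FPKM (2470 to 2577) in control 3 h. The hormone libraries agree within counting error there, while the controls lie 1.65 apart on the log2 scale. At nscaf2998 926016 to 930811 there were 21.8 FPKM (19.9 to 23.8) in PTTH 1 h and 46.3 FPKM (43.3 to 49.3) in control 1 h.

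Neighbours that were lower together are the pair on nscaf2575 and a pair on nscaf2930. On nscaf2930 the locus 4729290 to 4734037 had 5.57 FPKM in PTTH 1 h, 12.6 FPKM in control 1 h, 41.7 FPKM in PTTH 3 h and 62.2 FPKM in control 3 h. The other, 4749872 to 4754183, had 4.85 FPKM in PTTH 1 h, 13.8 FPKM in control 1 h, 41.2 FPKM in PTTH 3 h and 54.7 FPKM in control 3 h. Both stood several times higher in the 3 h libraries, with PTTH below control at each time. The tested loci beyond the pair, 4540584 to 4543860 and 4759965 to 4765051, had log2 ratios of -0.15 and 0.08 at 1 h. The gaps within the pairs were 19.1 kb on nscaf2575 and 15.8 kb on nscaf2930.

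The other lower loci given here had 3.33 to 11.6 FPKM in control 1 h. Those on nscaf2795, nscaf2859 and nscaf3045 rest on 32.5, 12.5 and 9.01 implied fragments in PTTH 1 h. At nscaf2795 1629928 to 1630699 there were 2.40 FPKM in PTTH 1 h, 7.06 FPKM in control 1 h, 8.05 FPKM in PTTH 3 h and 18.5 FPKM in control 3 h. At nscaf2859 144927 to 145359 there were 4.56 FPKM in PTTH 1 h, 11.6 FPKM in control 1 h, 5.85 FPKM in PTTH 3 h and 15.0 FPKM in control 3 h. In both the ratio was alike at the times, with log2 ratios of -1.25 ± 0.22 and -1.18 ± 0.41 at 1 h and of -1.11 ± 0.15 and -1.22 ± 0.36 at 3 h. At nscaf3045 2112459 to 2113239 there were 0.771 FPKM in PTTH 1 h and 3.33 FPKM in control 1 h, with overlapping intervals at 3 h. PTTH 1 h lists nscaf2623 112764 to 114393 at 0, and there were 7.25 FPKM (3.88 to 10.6) in control 1 h from 18.5 implied fragments, so no fold is given.

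**Figure D3:**
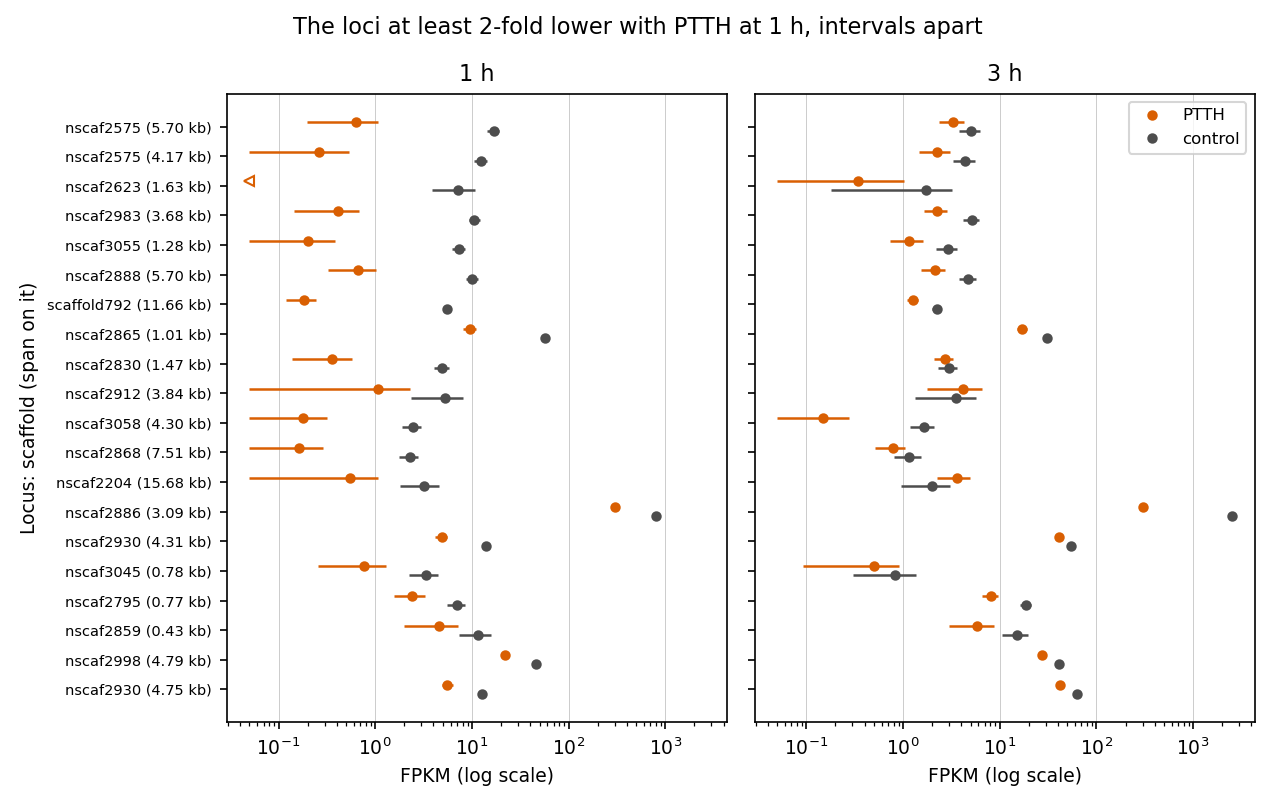
FPKM (log axis) with the authors' confidence limits for the 20 lower loci, ordered from the top by the smallest log2 ratio at 1 h, at 1 h on the left and 3 h on the right. The 1 h points lie far apart in the upper rows and the 3 h points close together; the open triangle marks a locus listed at 0 in PTTH 1 h, and lower limits under 0.05 FPKM are drawn at 0.05.

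The 3 h libraries share no library with the 1 h comparison, and the higher and lower loci differed in what they showed there. At 3 h PTTH lay at least 2-fold above control in 34 of the 40 higher loci (85.0%) and in 2.84% of all tested loci. These 34 make up 14% of the 243 loci at least 2-fold higher at 3 h. Of the 20 lower loci, 5 (25.0%) were at least 2-fold lower at 3 h, where 3.44% of all tested loci were, and they make up 1.70% of the 294 loci at least 2-fold lower at 3 h. The added 1 FPKM weighs more on the lower loci, with medians of 3.01 FPKM in PTTH 3 h and 4.56 FPKM in control 3 h. In plain FPKM, nscaf2888 1649405, nscaf3055 1531730 and nscaf2983 1738719 were also past the limit at 3 h. They were 2.21-fold, 2.50-fold and 2.27-fold lower, with intervals apart. PTTH was below control at 3 h in 18 of the 20 lower loci, by any amount, as in 66.9% of tested loci. The median log2 ratio of the higher loci was 1.51 at 1 h and 2.22 at 3 h, and that of the lower loci was -1.57 at 1 h and -0.66 at 3 h.

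Set against counting error, the ratio of a higher locus was more often larger at 3 h than smaller. It was larger by more than 2 counting SEs of the difference in 25 of the 40, smaller by as much in 7, and within that range in 8. Of the 2792 tested loci with a ratio above 0 at 1 h, 17.3% had a larger ratio at 3 h by this measure and 23.6% a smaller one. Most of the 2792 lay close to 0 at 1 h, so they are not alike in ratio to the higher loci. The greatest gain was at nscaf2888 4905668 to 4917235, with 2.39 FPKM in PTTH 1 h, 0.339 FPKM in control 1 h, 22.8 FPKM in PTTH 3 h and 0.228 FPKM in control 3 h. The locus at nscaf1681 had 565 FPKM in PTTH 3 h and 53.3 FPKM in control 3 h, and its log2 ratio was 3.38 ± 0.06 then against 1.15 ± 0.05 at 1 h. At nscaf1071 74256 to 87000 there were 6.55 FPKM in PTTH 1 h, 1.68 FPKM in control 1 h, 33.6 FPKM in PTTH 3 h and 2.22 FPKM in control 3 h. A steady ratio was seen at nscaf2136 2648133 to 2665164, with 176 FPKM in PTTH 1 h, 62.1 FPKM in control 1 h, 190.5 FPKM in PTTH 3 h and 68.0 FPKM in control 3 h, and log2 ratios of 1.49 ± 0.05 and 1.47 ± 0.04 at 1 h and 3 h.

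The 7 higher loci with a smaller ratio at 3 h include some whose intervals still lay apart at 3 h. A further 1 of the 7 is XLOC_009641, which has no counting error at 3 h because it is listed at 0 there. The locus at nscaf2889 2552174 to 2553690 had 29.4 FPKM in PTTH 1 h, 10.9 FPKM in control 1 h, 14.7 FPKM in PTTH 3 h and 11.7 FPKM in control 3 h. The long locus at nscaf2860 2795416 to 2816382 had 16.2 FPKM in PTTH 1 h, 5.24 FPKM in control 1 h, 11.3 FPKM in PTTH 3 h and 7.36 FPKM in control 3 h. At nscaf2890 581692 to 582999 there were 43.9 FPKM in PTTH 1 h, 14.2 FPKM in control 1 h, 35.6 FPKM in PTTH 3 h and 19.6 FPKM in control 3 h. In these 3 the highest of the 4 libraries was PTTH 1 h. Among the 20 lower loci the ratio was nearer to 0 at 3 h by more than 2 counting SEs in 16, and further from 0 by as much only at nscaf2886 229940 to 233028. Of the 5752 tested loci with a ratio below 0 at 1 h, 11.9% were nearer to 0 or across it at 3 h by this measure and 29.2% further from it. These shares are unlike that of the 20, which were picked for ratios far from 0 at 1 h. Most of the 5752 lay close to 0 and had less room to move nearer, so the contrast is not independent of the choice.

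**Figure D4:**
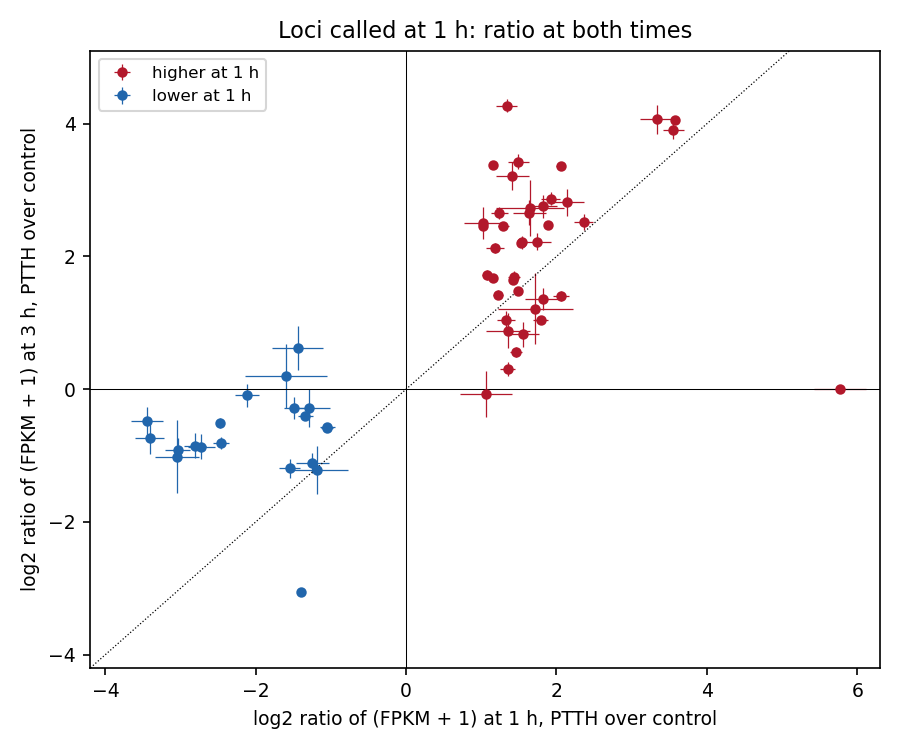
Log2 ratio of (FPKM + 1), PTTH over control, at 3 h against that at 1 h for the 40 higher (red) and 20 lower (blue) loci, with bars of 1 counting SE and a dotted line where both are equal. Most red points lie above the line, and most blue points lie between the line and 0; the red point at 5.77 is the locus listed at 0 in both 3 h libraries.

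The most abundant transcripts of the gland hardly differed at 1 h. Of the 100 loci with the highest mean FPKM, 98 lay within 1.5-fold, with a median log2 ratio of -0.03. The highest ratio was at nscaf2828 5431044 to 5431251, with 1426 FPKM in PTTH 1 h, 926 FPKM in control 1 h, 2988 FPKM in PTTH 3 h and 1375 FPKM in control 3 h. Next came nscaf2136 4891425 to 4891887, with 13204 FPKM in PTTH 1 h and 9344 FPKM in control 1 h, a log2 ratio of 0.50 ± 0.01. It was followed by nscaf2801 616537 to 618688, with 2391 FPKM in PTTH 1 h and 1983 FPKM in control 1 h, and nscaf2176 1260890 to 1266149, with 2023 FPKM in PTTH 1 h and 1725 FPKM in control 1 h. These intervals lie apart, since counting error is small at such levels. The fifth, nscaf2800 2702344 to 2702905, had 21287 FPKM in PTTH 1 h and 19240 FPKM in control 1 h from only 18.0 and 11.5 implied fragments, and its intervals overlap.

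On the low side of these 100 abundant loci, the smallest log2 ratio, -1.04 ± 1.07, was that of nscaf2883 1419090 to 1419261, with 2477 FPKM in PTTH 1 h and 5095 FPKM in control 1 h from under 5 implied fragments in each. The next, nscaf2951 682832 to 683029, had 1714 FPKM in PTTH 1 h and 2111 FPKM in control 1 h, a log2 ratio of -0.30 ± 0.17. At nscaf2176 3992076 to 3994335 there were 1930 FPKM in PTTH 1 h and 2296 FPKM in control 1 h, a log2 ratio of -0.25 ± 0.01, and in the 3 h libraries 1231 FPKM in PTTH 3 h and 1882 FPKM in control 3 h. At nscaf2891 2702240 to 2703148 and nscaf2053 83295 to 84674 the log2 ratios were -0.22 ± 0.09 and -0.18 ± 0.04.

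The 2-fold limit passes through a continuous range of values. The loci given here are the nearest to it among those with intervals apart. Just inside it on the higher side were nscaf2838 178873 to 179320, nscaf2210 1895881 to 1902432 and nscaf2564 329206 to 330831, with log2 ratios of 1.02, 1.02 and 1.06. Just outside was nscaf3075 951708 to 952998, with 382 FPKM in PTTH 1 h, 193 FPKM in control 1 h, 423 FPKM in PTTH 3 h and 59.6 FPKM in control 3 h, and a log2 ratio of 0.98 at 1 h. Also just outside were nscaf2868 861400 to 865705, at 40.5 FPKM in PTTH 1 h and 20.7 FPKM in control 1 h, and nscaf3026 717221 to 743220, at 190.4 FPKM in PTTH 1 h and 99.8 FPKM in control 1 h. On the lower side nscaf2930 4729290 to 4734037, nscaf2998 926016 to 930811 and nscaf2859 144927 to 145359 were just inside, with log2 ratios of -1.05, -1.05 and -1.18. Just outside were nscaf3063 3026183 to 3028385, nscaf3043 2270 to 5464 and nscaf3005 2000096 to 2001756, with log2 ratios of -0.97, -0.91 and -0.89. With intervals apart and a difference between 1.5-fold and 2-fold there were 45 further loci higher and 54 lower.

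The loci past 2-fold whose intervals overlap were mostly short and thinly covered. There were 44 on the higher side, with a median of 2.50 implied fragments over both 1 h libraries, and 62 on the lower side, with a median of 4.26. For the 40 higher loci with intervals apart that median was 878, and for the 20 lower ones 164. Spans under 1 kb made up 33 of the 44 and 46 of the 62. At 3 h, 4 of the 44 (9.09%) were again at least 2-fold higher and 12 of the 62 (19.4%) at least 2-fold lower, where 2.84% and 3.44% of all tested loci were. Short loci passed the limit more often either way. At 1 h, 3.72% of tested loci under 1 kb were at least 2-fold higher and 4.05% lower, against 0.983% and 0.959% of all. The share of all tested loci may therefore not suit loci this short.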

How the data were processed

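Paired-end libraries were made from total RNA with an mRNA kit from Illumina, per the labels' protocols. The submitters' processing notes name CASAVA 1.8.0, TopHat and SAMtools and give them no role, and the table's name holds the word Cuffdiff. The authors deposited FPKM with a lower and an upper limit per locus and library. Not given in the sources used here are the kind of limit, the build, the annotation and the scaling between libraries. A further 5 ratio columns were not used.

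Ratios are log2 of (FPKM + 1), PTTH over control, which understates differences of low loci; folds are plain ratios of FPKM. Implied fragments take the upper limit as 2 Poisson standard deviations above the value. Up to 20 fragments, 88.5% of values in PTTH 1 h and 82.6% in control 1 h came out as multiples of 0.5 within 0.02. The rule for named loci took the 15 largest and 15 smallest ratios among loci past 2-fold with intervals apart, FPKM above 0 in both 1 h libraries and at least 20 implied fragments, 2 a direction also by identifier where the mean was at least 5 FPKM. It added the 5 highest and 5 lowest ratios of the 100 most abundant loci. Among loci with intervals apart it added those listed at 0 and 3 on each side of the threshold. Other loci were chosen after their values were seen. Lists of pathway genes and tissue markers could not be used, as no identifier matched the gene list of ASM3026992v2. Members, lists and rules were chosen with earlier results of these data known. Calling was tried on simulated data with known folds and counting error only, the changed loci having a mean of at least 5 FPKM. Such data cannot show how calls fare with variation between preparations or at lower levels. Alternatives were other pseudocounts, filters, scalings, fold limits and fragment minimums. Python 3.11.15, numpy 2.4.6, pandas 2.3.3 and matplotlib 3.10.9 were used.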

Additional observations from a re-analysis of the deposited data

Results flagged for a closer look

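At 3 of the 60 loci called at 1 h with intervals apart, the 3 h ratio had the opposite sign; the difference between the times was not tested, and at each the 3 h intervals overlap. At nscaf2564 329206 to 330831 the log2 ratio was 1.06 at 1 h, with 4.73 FPKM in PTTH 1 h and 1.75 FPKM in control 1 h, and -0.07 at 3 h, with 2.31 FPKM in PTTH 3 h and 2.48 FPKM in control 3 h. At nscaf2204 2979080 to 2994760 it was -1.44 at 1 h, with 0.549 FPKM in PTTH 1 h and 3.20 FPKM in control 1 h, and 0.62 at 3 h, with 3.60 FPKM in PTTH 3 h and 1.995 FPKM in control 3 h. At nscaf2912 420796 to 424638 it was -1.60 at 1 h, with 1.07 FPKM in PTTH 1 h and 5.25 FPKM in control 1 h, and 0.19 at 3 h, with 4.15 FPKM in PTTH 3 h and 3.51 FPKM in control 3 h.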

How the results depend on the processing

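With 84 loci at least 2-fold higher and 82 lower, and 40 and 20 with intervals apart, the counts stayed within 1.5 times under no filter, a filter on the 1 h libraries alone, centring on the median, upper-quartile scaling, a common summed FPKM and leaving out loci at 0. Centring on the median gave 89 higher and 71 lower loci, and 42 and 16 with intervals apart. A pseudocount of 0.1 FPKM gave 124 lower loci. One of 5 FPKM gave 43 higher and 23 lower, and 9 lower with intervals apart. A mean of at least 5 FPKM left 6553 tested loci and gave 55 higher (0.839%) and 31 lower (0.473%), and 8 lower with intervals apart (0.122%). It left out 51 of the 82 lower loci, those with a mean of 1 to 5 FPKM, and 12 of the 20 with intervals apart. At least 20 implied fragments left 40 higher and 24 lower. A 1.5-fold limit gave 168 higher and 236 lower, with intervals apart 85 and 74. A 4-fold limit gave 19 higher and 21 lower, with intervals apart 8 and 9. Of the 30 loci named by ratio, none turned its direction under the pseudocounts or scalings. That was fixed beforehand, since a pseudocount cannot turn a direction and the scalings shifted log2 ratios by at most 0.08. A pseudocount of 5 FPKM moved the ratio beyond counting error in 24 of the 30. No paired analysis was possible because each group is 1 pooled library. Depth limits loci of few fragments most.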
